A study of Mus musculus with 10 samples.

Results

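Collagens and other genes of the extracellular matrix were examined in mouse blood progenitor cells that carried a vector, the leukaemia fusion AML1/ETO, or a mutant of that fusion. The genes were taken from a list of 35 collagens, matrix glycoproteins, proteoglycans, metalloproteinases and their inhibitors. They were chosen by name, with earlier results of these data known. Of the 35 genes, 33 were measured among 18193 genes on the arrays, and Loxl2 and Spp1 were not analysed here because they had no probe set listed for them alone. With AML1/ETO the fibril and matricellular genes Col1a2 and Sparc went from background to clear signal, and Timp3 and Mmp2 rose, whereas Igfbp7 and Mmp14 fell. With the mutant Sparc rose less and Igfbp7 fell. Mmp2 also fell with it and the basement membrane collagens Col4a1, Col4a2 and Col18a1 rose, of which the calls for Mmp2, Col4a1 and Col4a2 did not pass with a measure of RNA length as a covariate.

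The extracellular matrix is the meshwork of secreted proteins that surrounds cells. Fibrillar collagens such as type I form tensile fibres, while type IV collagen, laminins, nidogens and perlecan form the thin sheets called basement membranes. Collagen chains are hydroxylated on proline and lysine in the endoplasmic reticulum, assemble into trimers, and are cross-linked outside the cell. Metalloproteinases cut matrix proteins, and the tissue inhibitors of metalloproteinases (Timps) block them. In bone marrow most matrix is made by stromal, bone-forming and vascular cells, and blood progenitors bind it through integrins.

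RNA was measured on 10 Affymetrix arrays, each from a separate transduction. All groups were bone marrow cells of C57BL/6 mice aged 5 to 6 weeks, depleted of lineage-marked cells, selected for Sca1 and kept overnight in IL-3, IL-6 and SCF before they received a MigR1 retrovirus that also encodes GFP. The control group carried the vector with GFP alone (3 arrays), another group AML1/ETO (3 arrays), and the last the W692A form (4 arrays), a substitution in the MYND domain of ETO, which binds the corepressors SMRT and N-CoR. The comparisons ask which genes differ with the fusion, and which of these differ with the mutant. Sorting for live Lin- Sca1+ cKit+ GFP+ cells followed 48 hours after a repeat of the transduction, and 50 ng of RNA, taken from 25000 cells, went through more than 1 round of amplification. As a model the groups are limited to short-term forced expression from a retrovirus in cultured cells, and the labels do not tie each transduction to its own mice, so p-values measure the spread between transductions.

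Values below are log2 array signals. Array signals of different genes cannot be ranked against each other, so levels are compared within a gene only. A background bound of 2.04 was taken as the highest signal on any array of 27 control probe sets for bacterial RNAs with no target in the sample. W692A replicate 2 set that bound, and the bounds of the single arrays ran from 0.898 to 2.04. Where the dimmer group had an array under the bound, a fold change is given as "at least", against the bound. No fold is given where both group means were at or under it. Within groups the arrays correlated at 0.982 to 0.992 and between groups at 0.887 to 0.962, over 8301 genes. The signal of Gapdh probe sets at the 3′ end over those at the 5′ end, a sign of RNA length after amplification, was 4.83 to 4.99 with GFP, 4.01 to 5.04 with AML1/ETO and 3.81 to 4.17 with W692A in log2. It separated W692A from GFP on every array. Its part in the results was not tested beyond a fit with it as a covariate, and the calls that fit changed are given beside them.

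Regulatory sequence of members whose RNA moved between the groups is shown here because AML1 (Runx1) binds DNA through its Runt domain, which the fusion keeps. Each window holds the 250 bases upstream of the annotated start on the gene's own strand, 5′ to 3′, from RefSeq on GRCm38.p6. Col1a2, Sparc and Timp3 were chosen because they rose with AML1/ETO and were lower again with the mutant, and Igfbp7 and Mmp14 because they fell. The windows are Col1a2 at chr6:4505368-4505617 on the plus strand, Sparc at chr11:55420081-55420330 on the minus strand, Timp3 at chr10:86300162-86300411 on the plus strand, Igfbp7 at chr5:77408046-77408295 on the minus strand and Mmp14 at chr14:54431348-54431597 on the plus strand. Capitals mark the letters that matched a Runx motif.
Col1a2: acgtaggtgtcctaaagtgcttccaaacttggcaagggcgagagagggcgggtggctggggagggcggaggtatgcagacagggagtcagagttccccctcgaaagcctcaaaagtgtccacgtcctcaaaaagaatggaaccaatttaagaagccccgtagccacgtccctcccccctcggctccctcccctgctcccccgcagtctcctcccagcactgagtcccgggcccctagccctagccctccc
Sparc: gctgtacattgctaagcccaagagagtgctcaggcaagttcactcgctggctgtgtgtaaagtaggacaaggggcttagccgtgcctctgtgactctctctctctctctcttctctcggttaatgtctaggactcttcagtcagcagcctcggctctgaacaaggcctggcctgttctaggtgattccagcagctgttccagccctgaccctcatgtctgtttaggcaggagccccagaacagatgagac
Timp3: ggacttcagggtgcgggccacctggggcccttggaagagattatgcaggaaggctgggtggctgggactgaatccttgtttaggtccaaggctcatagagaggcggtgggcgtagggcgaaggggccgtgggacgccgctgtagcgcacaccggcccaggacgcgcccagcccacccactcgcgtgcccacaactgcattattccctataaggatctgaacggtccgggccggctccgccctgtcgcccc
Igfbp7: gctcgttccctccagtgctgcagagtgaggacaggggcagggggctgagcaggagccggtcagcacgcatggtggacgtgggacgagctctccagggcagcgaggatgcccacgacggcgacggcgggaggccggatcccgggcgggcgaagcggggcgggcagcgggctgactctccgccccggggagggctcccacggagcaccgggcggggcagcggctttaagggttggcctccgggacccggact
Mmp14: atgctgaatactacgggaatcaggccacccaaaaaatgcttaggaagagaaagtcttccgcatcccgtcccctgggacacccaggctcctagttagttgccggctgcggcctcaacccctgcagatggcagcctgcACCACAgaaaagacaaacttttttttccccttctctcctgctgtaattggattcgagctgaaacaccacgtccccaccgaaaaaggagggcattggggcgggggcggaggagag
The letters searched were TGTGGT and TGCGGT on both strands, which read ACCACA and ACCGCA on the reverse strand, and no other motif was searched. The Mmp14 window held ACCACA, starting 114 bases upstream of the start, and the windows of Col1a2, Sparc, Timp3 and Igfbp7 held none. Of 23 members with a window, 5 had a match (21.7%), which were Col18a1, Col4a2, Mmp14, Vcan and Spp1, against 20.9% of 27025 genes. The share among the members was close to that among all genes, and a match or its absence in this window is a description of letters only. The annotated starts of Col4a1 and Col4a2 lie 21 bases apart on chromosome 8, on opposite strands.

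In 14 of the 33 measured genes (42.4%) at least 1 group mean was above the bound, a share near that of all genes (8820 of 18193, 48.5%). The other 19 were at or below it on every array, with signals from 0.15 to 1.89. These were Col1a1, Col3a1, Col5a1, Col6a1, Col6a2, Fn1, Bgn, Dcn, Lum, Postn, Mgp, Lama4, Lamb1, Lamc1, Nid2, Timp1, Lox, Tnc and Vcan, which include the fibroblast products fibronectin (Fn1), decorin (Dcn), lumican (Lum) and periostin (Postn). The members nearest the bound were Nid1, with a group mean of 2.09, and Fn1, with a highest group mean of 1.71. With a bound of 1.45 from the other 9 arrays 18 members were above it, and with each array set against its own bound 22 were. Of the 14, the group mean was above the bound for 10 with GFP, 13 with AML1/ETO and 10 with W692A, and for 9 in all 3 groups.

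**Figure D1:**
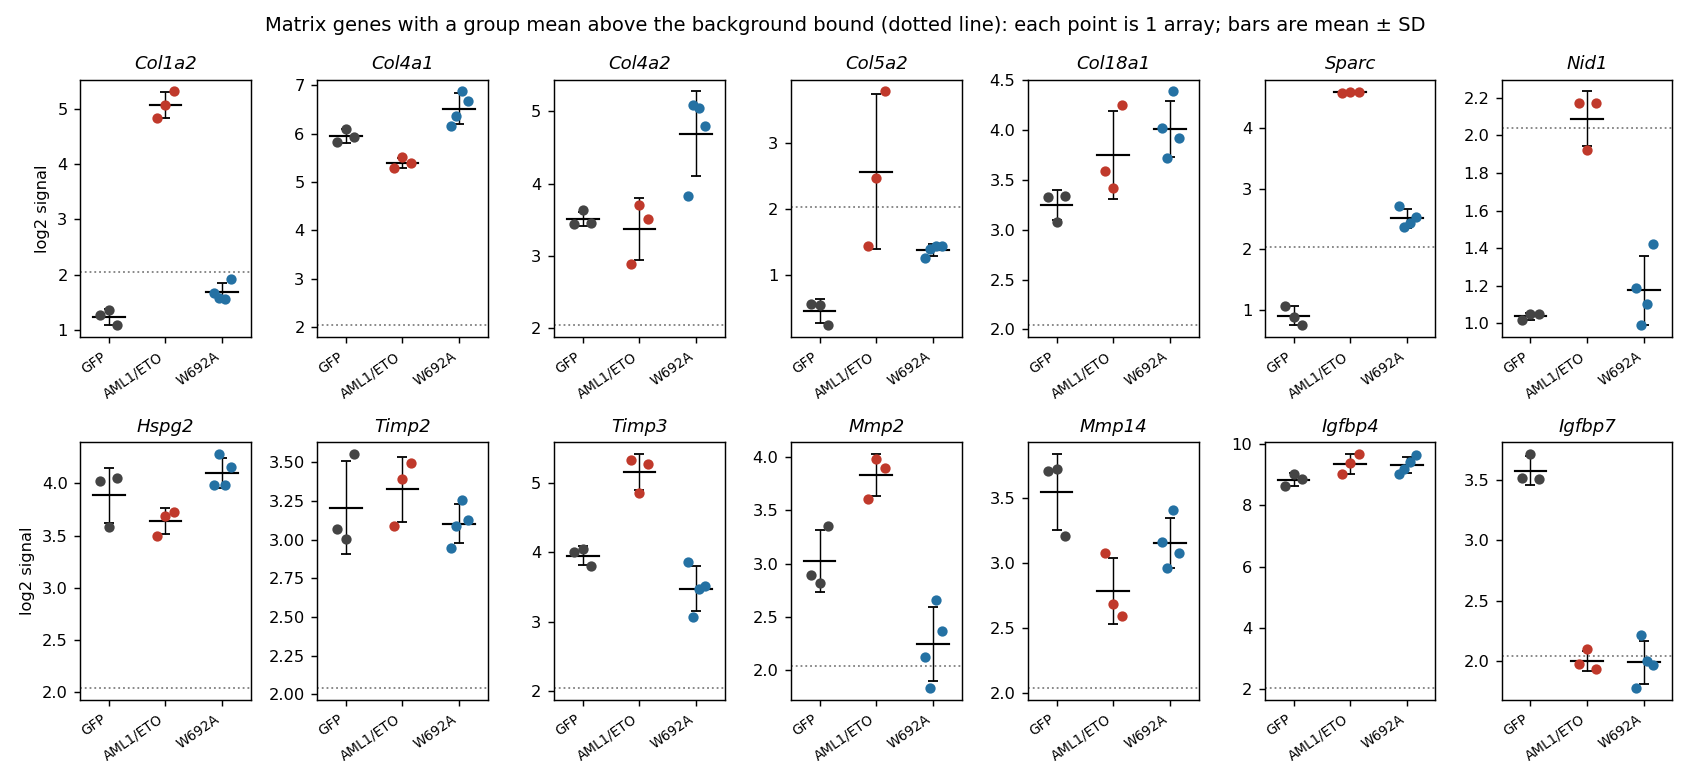
Log2 array signal of the matrix genes with at least 1 group mean above background, a panel for each gene. Points are arrays, coloured by group (GFP n = 3, AML1/ETO n = 3, W692A n = 4), bars are group means ± SD, the dotted line is the background bound of 2.04, and each panel has its own vertical scale. Col1a2 and Sparc lie under the bound on every GFP array and above it on every AML1/ETO array, and Igfbp7 is highest on the GFP arrays.

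Between AML1/ETO and GFP, 10 members rose and 3 fell out of 33, and 20 did not pass, by limma with Benjamini-Hochberg adjustment over all genes and a threshold of 0.05. That is 39.4% of the members, where 28.6% of all genes passed, 12.9% higher and 15.8% lower. All AML1/ETO arrays lay above all GFP arrays for 12 members and below for 3, where 18.1% and 21% of all genes did so. The median difference of the members was 0.17, against -0.02 over all genes. Both medians were 0 once values under the bound were set to it. Nid2, Timp1 and Vcan, which count among the 10, were at or below the bound on every array, so their differences lie within the background range. With values under the bound set to it, these 3 and Col4a1, Col5a2, Nid1 and Igfbp4 no longer passed. Col4a1 and Igfbp4 lay above the bound on every array, so their differences did not change there. Only the shared spread and the adjustment over all genes did.
Between W692A and GFP, 5 members rose and 2 fell, and 26 did not pass. That is 21.2% of the members, where 14.5% of all genes passed, 5.45% higher and 9.07% lower. The W692A arrays lay above all GFP arrays for 7 members and below for 2, where 9.85% and 12.5% of all genes did so. The median was 0.13 for the members and 0.01 for all genes. With values under the bound set to it only Sparc and Igfbp7 passed. The differences of Col4a1, Col4a2 and Col18a1, above the bound on every array, were unchanged there, and only the shared spread and the adjustment differed.
Between W692A and AML1/ETO, 3 members were higher with the mutant and 8 lower, and 22 did not pass. That is 33.3%, where 20.7% of all genes passed, 9.61% higher and 11.1% lower. The W692A arrays were above all AML1/ETO arrays for 3 members and below for 6, where 13.7% and 13.5% of all genes did so. The 3 comparisons share arrays, so each is given for itself. The medians were -0.03 for the members and 0.03 for all genes. Without AML1/ETO replicate 2 the count fell from 11 to 7, with Col5a2, Nid2, Hspg2 and Vcan lost.

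**Figure D2:**
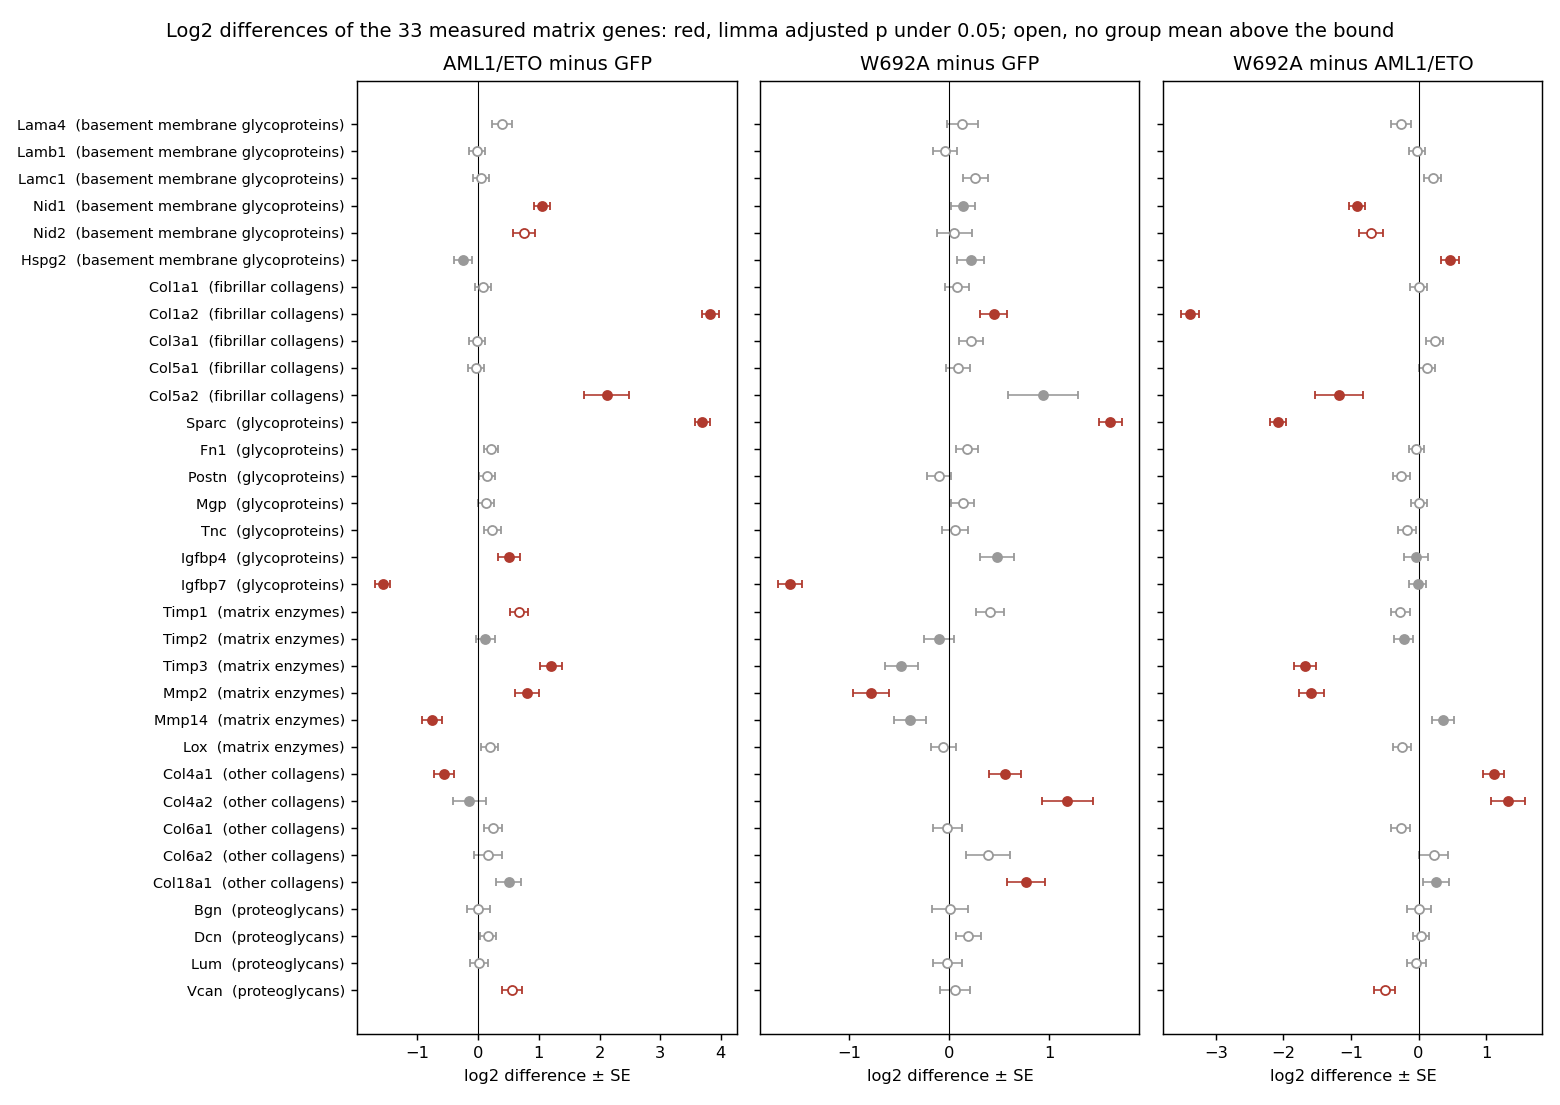
Differences in log2 signal of the measured matrix genes for the 3 comparisons, in panels with their own scales, with genes grouped by role. Points are limma estimates with bars of 1 SE, red where the adjusted p was under 0.05 and grey otherwise, and open where no group mean was above the background bound. Col1a2 (3.83) and Sparc (3.69) lie far to the right of the other genes for AML1/ETO against GFP, and both lie to the left for W692A against AML1/ETO.

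Among the 5 fibrillar collagens, 2 rose with AML1/ETO, Col1a2 and Col5a2 (40%, where 28.6% of all genes passed). With W692A against GFP 1 rose, Col1a2 (20%, where 14.5% of all genes passed). Both were lower with W692A than with AML1/ETO (40%, where 20.7% of all genes passed). Col1a2 encodes the chain that joins Col1a1 chains in type I collagen. Its signal was 1.27, 1.37 and 1.09 with GFP, 4.83, 5.06 and 5.31 with AML1/ETO, and 1.67, 1.58, 1.56 and 1.92 with W692A. All AML1/ETO arrays stood above all others, and the GFP and W692A arrays were below the bound. The difference from GFP was 3.83 ± 0.146 (SE; limma adjusted p = 7.35e-11), at least 8.15-fold. W692A was lower than AML1/ETO by at least 8.15-fold (-3.38 ± 0.136, limma adjusted p = 7.55e-10). W692A arrays were also above GFP arrays, within the background range (0.44 ± 0.136, limma adjusted p = 0.0411). That last call was lost without any GFP replicate and without W692A replicate 1, 2 or 4, with adjusted p from 0.051 to 0.146, and with the Gapdh difference as a covariate (0.0765).
Its partner chain was at background in every group. Col1a1 was at 0.50 to 0.96 on all 10 arrays, and its difference between AML1/ETO and GFP was 0.08 with a 95% interval of -0.20 to 0.36 (limma adjusted p = 0.765). A probe set reads a short stretch of RNA, and a signal under the bound does not show that Col1a1 RNA was absent. Of the 2 other probe sets of Col1a2, 1 passed in the same direction with group means under the bound, at 0.41, 0.94 and 0.53 for GFP, AML1/ETO and W692A.
Col5a2 encodes a chain of type V collagen, which starts type I fibrils. Its signal was 0.57, 0.55 and 0.24 with GFP, 1.45, 2.47 and 3.79 with AML1/ETO, and 1.26, 1.40, 1.45 and 1.45 with W692A. The AML1/ETO arrays were spread over a wide range (SD 1.17, n = 3), with replicate 1 at the level of W692A, so these groups overlapped. AML1/ETO was above GFP by 2.12 ± 0.375 (limma adjusted p = 0.000451), at least 1.65-fold. With values under the bound set to it the difference was 0.72 and did not pass (0.332). Its other probe set was under the bound, at 0.68, 0.76 and 0.76, and passed in no comparison. The difference of W692A from AML1/ETO was -1.18 ± 0.351 (limma adjusted p = 0.0259), and it was lost without AML1/ETO replicate 2 or 3 or W692A replicate 1, 2 or 4, with adjusted p from 0.0503 to 0.0927, and with the Gapdh covariate (0.151). The difference of W692A from GFP was 0.94 (limma adjusted p = 0.0956), and it passed with the Gapdh covariate (0.00412).

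Col4a1, Col4a2 and Col18a1, collagens of basement membranes, had their highest group mean with the mutant. Col4a1 and Col4a2 encode the chains that together form the most widespread type IV collagen, and their genes lie head to head. Col4a1 was at 5.82, 6.10 and 5.94 with GFP, 5.29, 5.51 and 5.39 with AML1/ETO, and 6.15, 6.36, 6.87 and 6.67 with W692A. The groups did not overlap, with AML1/ETO lowest and W692A highest. It fell with AML1/ETO by 1.47-fold (-0.56 ± 0.166, limma adjusted p = 0.0184) and rose with W692A by 1.47-fold (0.56 ± 0.155, limma adjusted p = 0.025), and W692A was 2.17-fold above AML1/ETO (1.12 ± 0.155, limma adjusted p = 0.000101). Against GFP these calls were sensitive to single arrays. The fall was lost without GFP replicate 2 (adjusted p = 0.0786) or AML1/ETO replicate 1 (0.0705), and the rise without GFP replicate 1 (0.114) or 3 (0.0663) or W692A replicate 3 (0.0616) or 4 (0.0732). With the mean of its probe sets the difference of AML1/ETO from GFP was -0.25 and did not pass (0.160). The other probe set of Col4a1 was at 1.73, 1.78 and 2.11 for GFP, AML1/ETO and W692A and passed in no comparison. There AML1/ETO differed from GFP by 0.06 (limma adjusted p = 0.842 over all probe sets), so the fall rests on 1 probe set. W692A differed there from GFP by 0.38 (0.0551) and from AML1/ETO by 0.32 (0.0853).
Col4a2 was at 3.45, 3.63 and 3.46 with GFP, 2.89, 3.71 and 3.51 with AML1/ETO, and 3.84, 5.09, 5.05 and 4.80 with W692A. All W692A arrays were above the others, with replicate 1 the lowest of them. W692A was 2.26-fold above GFP (1.18 ± 0.257, limma adjusted p = 0.00574) and 2.50-fold above AML1/ETO (1.32 ± 0.257, limma adjusted p = 0.00161). AML1/ETO and GFP overlapped (-0.14, 95% interval -0.73 to 0.44, limma adjusted p = 0.792).
Col18a1 encodes the collagen from which endostatin is cut. It was at 3.33, 3.07 and 3.34 with GFP, 3.58, 3.41 and 4.25 with AML1/ETO, and 4.02, 3.72, 4.39 and 3.91 with W692A. Every array of both fusions was above every GFP array. The rise with W692A was 1.70-fold (0.76 ± 0.190, limma adjusted p = 0.0131; 0.0673 without GFP replicate 2). The difference with AML1/ETO was 0.50 ± 0.203 and did not pass (limma adjusted p = 0.0816), though it passed with the Gapdh covariate (0.0310), with a replicate block (0.0178) and without AML1/ETO replicate 2 (0.0333). The fusions differed by 0.26 (95% interval -0.14 to 0.67, limma adjusted p = 0.422). With the Gapdh difference as a covariate the rises of Col4a1 and Col4a2 with W692A no longer passed (adjusted p = 0.483 and 0.147), nor did the fall of Col4a1 with AML1/ETO (0.0760). The W692A and GFP arrays do not overlap in that measure.

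Among the basement membrane glycoproteins Nid1 rose with AML1/ETO, and Hspg2 was higher with W692A than with AML1/ETO. Nid1 encodes nidogen, which links laminin to type IV collagen. It was at 1.02, 1.05 and 1.05 with GFP, 2.17, 1.92 and 2.17 with AML1/ETO, and 1.19, 0.99, 1.10 and 1.42 with W692A. The AML1/ETO arrays stood above all others but close to the bound, so the fold was at least 1.06 (1.05 ± 0.130 against GFP, limma adjusted p = 1.62e-05; W692A against AML1/ETO -0.91 ± 0.122, limma adjusted p = 6.92e-05). The 2 other probe sets of Nid1 were under the bound in every group and passed in no comparison, so its rise rests on 1 probe set. Its relative Nid2, at or below the bound throughout, differed by 0.76 between AML1/ETO and GFP (limma adjusted p = 0.00547) and by -0.71 between W692A and AML1/ETO (0.00858; 0.0596 without AML1/ETO replicate 2).
Hspg2 encodes perlecan, a heparan sulfate proteoglycan. It was at 4.03, 3.58 and 4.05 with GFP, 3.50, 3.69 and 3.73 with AML1/ETO, and 3.99, 4.28, 3.98 and 4.16 with W692A. The mutant arrays were all above the AML1/ETO arrays, and GFP overlapped both. The 1.38-fold difference between the fusions (0.46 ± 0.136, limma adjusted p = 0.0233) was lost without AML1/ETO replicate 1 (0.111) or 2 (0.0531) or W692A replicate 2 (0.0657) or 4 (0.0591).

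Sparc, a secreted protein that binds collagen and is also called osteonectin, was graded across the groups. Its signal was 1.06, 0.88 and 0.75 with GFP, 4.57, 4.60 and 4.60 with AML1/ETO, and 2.71, 2.36, 2.43 and 2.54 with W692A. The groups did not overlap, and the AML1/ETO arrays agreed closely (SD 0.0153, n = 3). AML1/ETO was at least 5.86-fold above GFP (3.69 ± 0.126, limma adjusted p = 3.37e-11). W692A was at least 1.38-fold above GFP (1.61 ± 0.118, limma adjusted p = 2.97e-07) and 4.24-fold below AML1/ETO (-2.08 ± 0.118, limma adjusted p = 1.81e-08). Another probe set gave the same order, at 0.50, 2.78 and 1.18, and passed in all 3 comparisons.
Igfbp4 and Igfbp7 encode secreted binding proteins of the insulin-like growth factor system. Igfbp7 was at 3.51, 3.71 and 3.50 with GFP, 1.98, 2.10 and 1.94 with AML1/ETO, and 1.78, 2.22, 2.00 and 1.97 with W692A. Both fusions lay at the bound, below all GFP arrays. It fell by at least 2.86-fold with AML1/ETO (-1.57 ± 0.129, limma adjusted p = 2.94e-07) and at least 2.81-fold with W692A (-1.59 ± 0.121, limma adjusted p = 4.40e-07). The fusions differed by -0.01 (95% interval -0.27 to 0.24). Its 2 other probe sets passed in no comparison, and the 1 above the bound was at 2.12, 2.04 and 2.09, so the fall rests on 1 probe set.
Igfbp4 was at 8.62, 9.03 and 8.86 with GFP, 9.02, 9.36 and 9.66 with AML1/ETO, and 9.02, 9.19, 9.41 and 9.63 with W692A. The groups overlapped. The 1.43-fold difference between AML1/ETO and GFP passed narrowly (0.51 ± 0.182, limma adjusted p = 0.0471) and did not without GFP replicate 1 (0.188) or 3 (0.0887) or AML1/ETO replicate 2 (0.112) or 3 (0.215). W692A differed from GFP by 0.48 and did not pass (0.0804). Of its 5 other probe sets, 2 passed in the same direction for AML1/ETO and 4 for W692A against GFP.

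Of the proteoglycans beside Hspg2, which was above the bound on every array, none (Bgn, Dcn, Lum, Vcan) had a group mean above it. Vcan encodes versican, a large hyaluronan-binding proteoglycan, and differed by 0.56 between AML1/ETO and GFP within the background range (limma adjusted p = 0.0148). That difference did not pass without GFP replicate 1 (0.0699) or AML1/ETO replicate 1 (0.0828) or 2 (0.054), or with the Gapdh covariate (0.278). The difference between W692A and AML1/ETO, -0.50 (limma adjusted p = 0.0263), did not pass without AML1/ETO replicate 1 (0.146) or 2 (0.0936) or W692A replicate 3 (0.0505) or 4 (0.0837).

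The proteinases and their inhibitors went both ways with AML1/ETO. Timp3, an inhibitor that stays bound to the matrix, was at 4.01, 4.05 and 3.80 with GFP, 5.33, 4.86 and 5.28 with AML1/ETO, and 3.85, 3.07, 3.47 and 3.51 with W692A. The AML1/ETO arrays were above all others, and W692A overlapped GFP. AML1/ETO was 2.31-fold above GFP (1.21 ± 0.179, limma adjusted p = 9.24e-05), and W692A was 3.21-fold below AML1/ETO (-1.68 ± 0.168, limma adjusted p = 4.95e-06). The difference of W692A from GFP was -0.48 ± 0.168 (limma adjusted p = 0.0749). Of its 3 other probe sets, 2 passed in the same direction for AML1/ETO against GFP and 2 for W692A against AML1/ETO. For W692A against GFP 1 of them, above the bound in GFP, passed (-0.70, limma adjusted p = 0.00557 over all probe sets), and the probe set used passed without W692A replicate 1 (0.0197) and with the spike-in level as a covariate (0.0276).
Mmp2, the secreted gelatinase A, was at 2.89, 2.82 and 3.36 with GFP, 3.61, 3.99 and 3.90 with AML1/ETO, and 2.12, 1.83, 2.65 and 2.36 with W692A. The groups did not overlap, with the mutant lowest and AML1/ETO highest. It rose with AML1/ETO by 1.75-fold (0.81 ± 0.196, limma adjusted p = 0.00511) and fell with W692A by at least 1.65-fold (-0.78 ± 0.184, limma adjusted p = 0.00968; 0.0543 without GFP replicate 3). The mutant was below AML1/ETO by at least 2.90-fold (-1.59 ± 0.184, limma adjusted p = 2.02e-05). With the Gapdh difference as a covariate the fall with W692A did not pass (adjusted p = 0.281).
Mmp14 encodes a membrane-bound metalloproteinase that activates the Mmp2 proenzyme. It was at 3.70, 3.72 and 3.21 with GFP, 3.08, 2.69 and 2.60 with AML1/ETO, and 3.16, 2.96, 3.41 and 3.08 with W692A. AML1/ETO was below every GFP array, and W692A overlapped both groups. Mmp14 fell with AML1/ETO by 1.69-fold (-0.76 ± 0.170, limma adjusted p = 0.00284), while W692A did not differ past the threshold from GFP (-0.39, 0.125) or from AML1/ETO (0.37, 0.134). None of its other probe sets passed, and with the mean of its probe sets the fall was -0.27 and did not pass (limma adjusted p = 0.0523).
Timp2, an inhibitor that also takes part in activating Mmp2 at the cell surface, was above background in all groups and passed in no comparison. It was at 3.07, 3.00 and 3.55 with GFP, 3.09, 3.39 and 3.49 with AML1/ETO, and 2.95, 3.09, 3.25 and 3.12 with W692A. The groups overlapped, with 95% intervals of -0.22 to 0.46 for AML1/ETO and -0.42 to 0.21 for W692A against GFP. Timp1 differed by 0.68 between AML1/ETO and GFP within the background range (limma adjusted p = 0.00222).

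**Figure D3:**
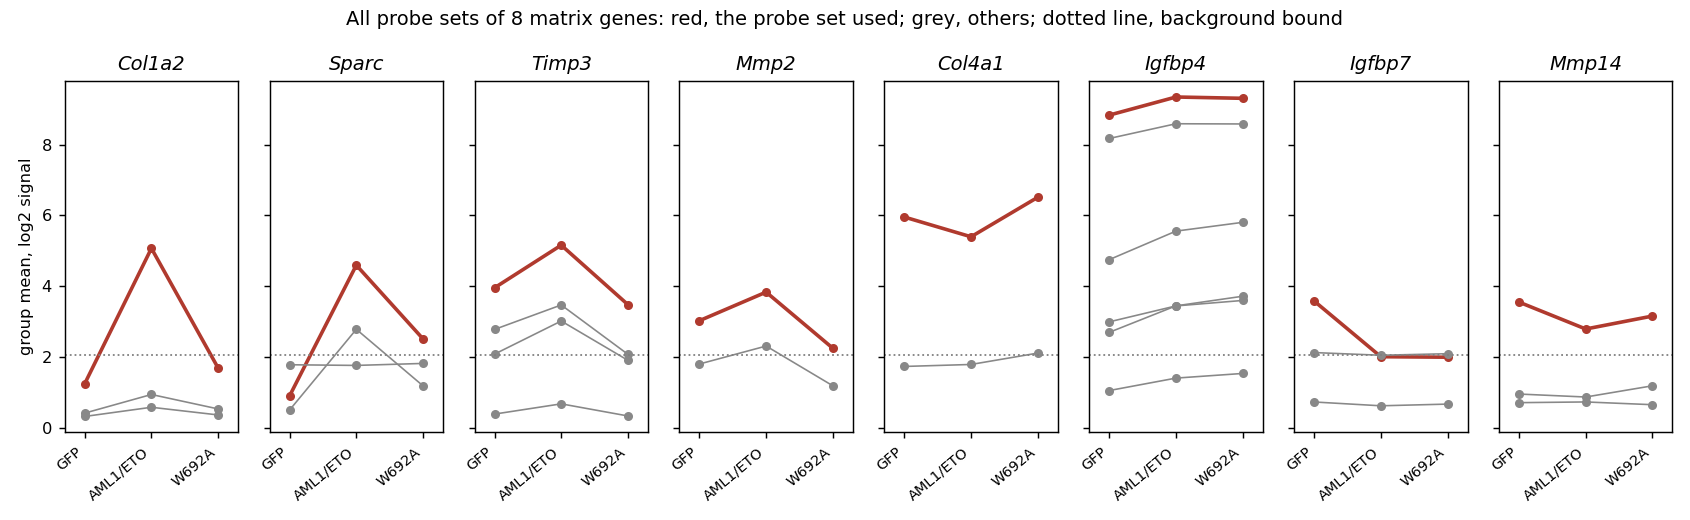
Mean log2 signal per group (GFP, AML1/ETO, W692A) of every probe set of 8 matrix genes, joined by lines, with the probe set used in red, the others in grey and the background bound dotted. Of the Sparc probe sets, both that exceed the bound peak with AML1/ETO, while for Igfbp7 the probe set used falls from 3.58 with GFP and the other near the bound stays between 2.04 and 2.12.

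Other secreted matrix proteins, from a separate list, had a group mean above the bound in 8 of 42 measured genes. With AML1/ETO 6 rose, 2 fell and 34 did not pass (median 0.02), so 19.05% passed, where 28.6% of all genes did. Ecm1, a secreted glycoprotein of the matrix, was at 1.41 to 1.96 with GFP, 5.85 to 6.58 with AML1/ETO and 3.57 to 4.49 with W692A. Its groups did not overlap and had the same order as those of Sparc. It was at least 17.1-fold above GFP with AML1/ETO (4.41 ± 0.229, limma adjusted p = 2.19e-09) and at least 4.14-fold with W692A (2.36 ± 0.215, limma adjusted p = 2.81e-06). The mutant was 4.13-fold below AML1/ETO (limma adjusted p = 8.09e-06).
Agrn, the basement membrane proteoglycan agrin, was at 4.33 to 4.66 with GFP, 6.50 to 6.77 with AML1/ETO and 4.22 to 4.42 with W692A. It rose 4.51-fold with AML1/ETO (2.17 ± 0.126, limma adjusted p = 6.77e-09), and the mutant did not differ from GFP past the threshold (-0.16, 0.456). Thbs2, a matricellular thrombospondin, was at least 3.12-fold above GFP with AML1/ETO (2.76 ± 0.141, limma adjusted p = 1.89e-09) and at 1.58 to 1.73 with W692A, under the bound. Tgfbi, a secreted protein induced by TGF-beta, was at 2.86 to 3.33 with GFP, 0.88 to 1.18 with AML1/ETO and 2.95 to 3.61 with W692A. It fell with AML1/ETO by at least 2.09-fold (-2.03 ± 0.171, limma adjusted p = 3.78e-07), and W692A overlapped GFP. Emilin2 fell by 1.35-fold with AML1/ETO (limma adjusted p = 0.0114) and by 1.60-fold with W692A (limma adjusted p = 0.00063).
With W692A against GFP, 3 of these 42 rose and 1 fell (median 0.05; 9.52% against 14.5% of all genes), and against AML1/ETO 1 was higher and 6 lower (median 0.01; 16.7% against 20.7%).

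A further list, also chosen with earlier results of these data known, held enzymes that modify and assemble collagen chains together with matrix proteinases, an inhibitor and cross-linking enzymes. Of its 25 measured genes, 11 rose and 1 fell with AML1/ETO and 13 did not pass. That is 48%, where 28.6% of all genes passed, with a median of 0.30 (0 with values under the bound set to it). The 11 included the prolyl hydroxylase chains P4ha1, P4ha2 and P4hb and the lysyl hydroxylases Plod1, Plod2 and Plod3. They also included Crtap and Ppib, which belong to the complex that modifies prolines of collagen. The other rises were the proteinases Adamts1, Mmp8 and Mmp13. Plod2 hydroxylates the lysines used for collagen cross-links and was at 2.38 to 2.71 with GFP, 6.92 to 7.37 with AML1/ETO and 4.47 to 4.91 with W692A. Its groups did not overlap. It was 24.1-fold above GFP with AML1/ETO (4.59 ± 0.153, limma adjusted p = 2.87e-11), 4.22-fold with W692A (2.08 ± 0.144, limma adjusted p = 1.86e-07), and 5.71-fold lower with the mutant than with AML1/ETO (limma adjusted p = 1.94e-08).
P4ha1 and P4ha2 encode the catalytic chains of collagen prolyl hydroxylase. P4ha1 was at 3.02 to 3.32, 4.59 to 4.65 and 3.14 to 3.38 in the same order of groups, 2.72-fold higher with AML1/ETO than with GFP (limma adjusted p = 2.94e-07). P4ha2 was at least 2.47-fold higher (limma adjusted p = 6.98e-08). Against AML1/ETO the mutant was lower for 9 genes of the list and higher for 1, Tgm2, and against GFP it was higher for 6 and lower for none. These are 40% and 24% of the list, where 20.7% and 14.5% of all genes passed. The 6 were P4ha2, Crtap, Plod2 and the proteinases Mmp8, Mmp12 and Mmp13, of which Mmp12 was at or below the bound on every array.
The remaining calls were among the proteinases and cross-linkers of the list. Mmp8, the neutrophil collagenase, was at 0.81 to 1.32 with GFP, 2.72 to 3.83 with AML1/ETO and 2.50 to 3.67 with W692A, at least 2.56-fold and at least 2.33-fold above GFP (limma adjusted p = 1.99e-05 and 6.94e-05). Tgm2, a transglutaminase that cross-links proteins, was at 9.06 to 9.27, 6.26 to 8.34 and 8.06 to 8.63, 4.21-fold lower with AML1/ETO than with GFP (limma adjusted p = 0.000459). Serpinh1, the collagen chaperone, and Loxl1, Loxl3, Loxl4, P3h1 and Mmp9 were at or below the bound on every array.

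**Figure D4:**
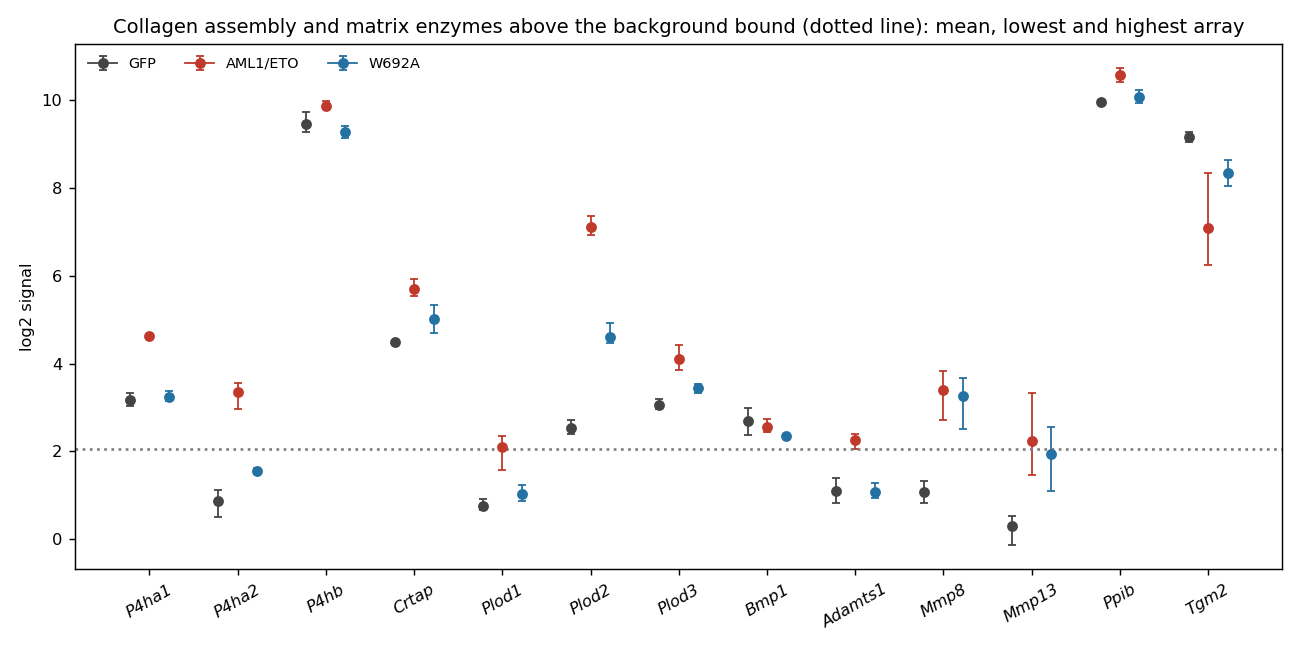
Log2 array signal of the collagen assembly and matrix enzymes with at least 1 group mean above background, 1 column for each gene. Points are group means, bars run from the lowest to the highest array (GFP n = 3, AML1/ETO n = 3, W692A n = 4), colours are groups and the dotted line is the background bound. Plod2 goes from 2.38 to 2.71 with GFP to 6.92 to 7.37 with AML1/ETO, with W692A between (4.47 to 4.91), and Tgm2 is highest with GFP.

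Matrix receptors changed in both directions. Of 24 measured, 7 rose and 6 fell with AML1/ETO, 4 rose and 5 fell with W692A, and 4 were higher and 4 lower with the mutant than with AML1/ETO. These are 54.2%, 37.5% and 33.3% of the list, where 28.6%, 14.5% and 20.7% of all genes passed. Itgav, the integrin chain that binds fibronectin and vitronectin with several partners, was at 5.51 to 5.90 with GFP, 7.49 to 8.02 with AML1/ETO and 6.57 to 6.95 with W692A, a rise of 2.05 ± 0.159 with AML1/ETO (limma adjusted p = 1.57e-07) and of 1.06 ± 0.148 with W692A (limma adjusted p = 0.000189). Itga6, a laminin-binding chain, rose 3.03-fold with AML1/ETO (limma adjusted p = 8.15e-07), and Itgb1, the partner chain of many collagen and laminin receptors, 2.26-fold (limma adjusted p = 0.000124). Itgb3, a partner chain of Itgav and, on megakaryocytes, of Itga2b, moved the other way, at 7.21 to 7.97 with GFP, 4.16 to 5.39 with AML1/ETO and 5.90 to 6.47 with W692A. It was 6.70-fold lower with AML1/ETO (limma adjusted p = 1.32e-06) and 2.54-fold lower with W692A (limma adjusted p = 0.00176). Itga2b fell 2.48-fold with AML1/ETO (limma adjusted p = 2.41e-06). Cd44, the hyaluronan receptor, was 2.16-fold higher with W692A than with AML1/ETO (limma adjusted p = 5e-05).

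Markers of other cell types were read beside these results, as sums of linear signal over each list. In bulk RNA, more cells of a type cannot be told apart from more RNA per cell. Of 13 measured stromal and mesenchymal markers, 10 were at or below the bound on every array, Pdgfra, Cxcl12, Lepr, Prrx1, Des, Tagln, Sp7, Alpl, Fap and Twist1. The sum was 33.0 to 48.4 with GFP, 30.5 to 37.9 with AML1/ETO and 25.0 to 28.8 with W692A. Without Pdgfrb, a choice made after seeing the data, it was 22.9 to 24.9 with GFP, 28.4 to 36.3 with AML1/ETO and 23.1 to 26.8 with W692A, highest where Col1a2, Sparc and Plod2 were highest. The full sum did not have that order, with medians of 39.4 with GFP and 33.3 with AML1/ETO. Of the 12 markers left, 10 were at or below the bound on every array. With AML1/ETO 4 of the 13 rose, Acta2 and Vcam1 and, within the background range, Lepr (limma adjusted p = 0.0262) and Fap (0.00947). Pdgfrb fell from 3.34 to 4.65 with GFP to 0.14 to 1.07. These calls are 38.5% of the list, where 28.6% of all genes passed. With W692A Pdgfrb and Vcam1 fell against GFP (15.4%, where 14.5% of all genes passed). Lepr, Vcam1 and Fap were lower with the mutant than with AML1/ETO (23.1%, where 20.7% of all genes passed).
The endothelial sum was 47.5 to 51.9 with GFP, 111.9 to 120.5 with AML1/ETO and 76.1 to 97.5 with W692A, the order of the groups in Sparc. Of the 13 endothelial markers 8 were at or below the bound on every array (Pecam1, Cdh5, Tie1, Emcn, Cldn5, Robo4, Plvap and Stab2), while Tek, Egfl7 and Esam rose and Vwf fell with both fusions. The megakaryocyte sum, of 8 markers with none at the bound on every array, was 500 to 595 with GFP, 965 to 1003 with AML1/ETO and 351 to 510 with W692A. Pf4, Ppbp and Treml1 rose with AML1/ETO while Gp1bb, Gp9, Selp and Nfe2 fell. The macrophage sum was 216 to 247, 370 to 414 and 451 to 548 in the same order of groups. Adgre1 and Csf1r were higher with both fusions, and Mertk, within the background range, was lower with both. These calls are 25% of the 12 measured markers with each fusion, where 28.6% and 14.5% of all genes passed. At or below the bound on every array were 8 of the 12, the defining complement genes C1qa, C1qb and C1qc with Marco, Cd163, Siglec1, Fcgr1 and Mertk. The part of these cell types in the matrix gene differences was not tested. For the sorted cells themselves, 9 of 10 stem and progenitor markers were above the bound in at least 1 group, Ptprc at 8.14 to 9.10, while Kit, used in the sort, was at or below it on every array.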

How the data were processed

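RNA of 10 samples was measured on Affymetrix arrays. The authors deposited 1 log2 value per probe set and array, from RMA (version not stated) per the submitters' processing notes, which leave the base open. Read as a natural logarithm the highest value, 12.77, gives 350219, which exceeds the 65535 of a 16-bit scanner, so base 2 was used. RMA gives all arrays 1 distribution, which hides differences in total RNA. The number of arrays limits the precision.

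Each of 18193 genes was represented by whichever of its single-symbol probe sets had the highest overall mean, with symbols updated by gene identifier to GRCm38.p6. Groups came from the sample labels and were compared with limma 3.58.1 (R 4.3.3) in 1 fit, with 7 residual and 7.53 prior degrees of freedom and Benjamini-Hochberg adjustment. The script was tested on simulated data. The members and gene lists were chosen with earlier results of these data known. Values on every array are given for members called in at least 1 comparison with a group mean above the bound, and Timp2 was added. From each other list up to 3 rises and 3 falls a comparison were eligible, by size, and a few genes beyond these, named with their list, were chosen after their values were seen. Alternatives changed the probe set rule, scaling, variance model, covariates, bound and arrays.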

Additional observations from a re-analysis of the deposited data

Results flagged for a closer look

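Timp1 on W692A replicate 3 was at 1.07, below the other W692A arrays at 1.38 to 1.40, with a gap of 0.942 of the group's range. All 4 values lie under the background bound, and chance sets apart an array in about 1 in 20 of the 33 groups of this kind.

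Col4a1 fell with AML1/ETO and rose with W692A against the same GFP arrays. The difference between the fusions, 1.12, was tested in the same limma fit (adjusted p = 0.000101). Each difference from GFP was lost under 6 alternatives, and the other probe set of Col4a1 passed in no comparison.

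Mmp2 rose with AML1/ETO and fell with W692A against GFP, and the difference between the fusions was -1.59 (limma adjusted p = 2.02e-05). The fall was lost under 3 alternatives, with the Gapdh covariate, without GFP replicate 3 and with values under the bound set to it.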

How the results depend on the processing

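No called difference changed sign under the alternatives run, while 5 differences that did not pass, such as Col4a2 for AML1/ETO against GFP (-0.31 to 0.15), did. The members called numbered 13 for AML1/ETO against GFP, 7 for W692A against GFP and 11 for W692A against AML1/ETO. These are 39.4%, 21.2% and 33.3% of the members, where 28.6%, 14.5% and 20.7% of all genes passed. With values under the background bound set to it the members called numbered 6, 2 and 6. By construction differences within the background range vanish there. Col4a1, Col4a2, Col18a1, Hspg2 and Igfbp4 lay above the bound on every array, so their differences did not change there. The calls they lost went with the shared spread and the adjustment, which were fitted again over all genes. With the Gapdh difference as a covariate W692A against GFP gave 4 members, and 506 genes in place of 2642. The cause was not tested. Leaving out 1 array gave 11 to 13, 5 to 8 and 7 to 11 members. Samples of different groups shared replicate numbers, and the labels do not say whether these pair transductions. Same-numbered arrays correlated at -0.119 to 0.443 over 9 pairs, those of replicate 1 at 0.255 to 0.443, and 8 of 18 were closest to their own number. With 3 or 4 arrays a group, these values cannot settle whether the numbers pair arrays. A replicate block gave 14, 6 and 9 members. Members above background numbered 14, and 22 with the bound of each array. The bound of 1.45 from the other arrays was chosen after seeing the data. Of 31 called differences of single members, 13 held under every alternative: Col1a2, Sparc, Timp3, Mmp2 and Igfbp7 for AML1/ETO against GFP, Sparc and Igfbp7 for W692A against GFP, and Col1a2, Col4a1, Col4a2, Sparc, Timp3 and Mmp2 between the fusions. Over all genes W692A against GFP gave 1468 calls at the bound and 1637 of at least 1.5-fold, and W692A against AML1/ETO 2485 and 2317 in place of 3765. Counts over all genes are not given here for AML1/ETO against GFP at the bound, the left-out arrays or the replicate block. Whether the members moved more than all genes under those settings cannot be read from the member counts. Signals under the bound limit what can be said of 19 members.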
